A study of Mus musculus with 12 samples.

Results

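The transcripts described here are the abundant long noncoding RNAs (lncRNAs), encoded on the autosomes, in libraries of sorted mouse bone cells that the labels name bone endothelial cells (BECs). A member was a gene annotated as lncRNA on chromosomes 1 to 19 chosen by its measured level: the mean had to reach 5 CPM (counts per 1000000 counts of a library) in at least 1 of the 4 groups, and H19 and Meg3 were left out. These criteria gave 59 members among 3042 autosomal lncRNA genes of the count table. Because the level in these same libraries chose the members, their abundance is a description and was not tested.

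Cells were purified by endomucin, a surface glycoprotein of endothelium, from the tibia of c57/Bl6 mice per the labels, while the study's methods give the strain as C57BL/6J and collect femurs as well, and their RNA was sequenced. The animals were females or males, 2 or 65 weeks of age, and the labels give no treatment and no engineered allele for any group. This gave 2-week females, 2-week males, 65-week females and 65-week males with 3 libraries each, the young and old groups. The labels do not say whether a library came from 1 animal or from a pool, nor give a batch, so p-values measure the spread between these libraries, which may be in part technical.

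LncRNAs are transcribed, spliced and often polyadenylated like mRNAs but are not translated into long proteins. Some act in the nucleus as scaffolds, such as Malat1 in nuclear speckles and Neat1 in paraspeckles. Others serve as hosts from whose introns or exons small nucleolar RNAs (snoRNAs) or microRNAs are cut, and many lie antisense to, or start beside, a protein-coding gene.

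Total counts per library ran from 26044743 to 44569600, and the lowest count of any member in any library was 13. The endothelial identity of the samples was checked with 15 endothelial markers, none of which was at 0. Their summed level was 3084 to 5578 CPM in the 2-week libraries and 231 to 351 CPM in the 65-week libraries. Erythroid markers summed to more than endothelial markers at both ages, with 30536 to 57336 CPM at 2 weeks and 30921 to 47677 CPM at 65 weeks, so the libraries held RNA of other marrow cells beside that of endothelium. Summed B cell markers moved the other way, from 791 to 1067 CPM at 2 weeks to 10426 to 23005 CPM at 65 weeks, and neutrophil markers from 5629 to 7775 CPM to 12637 to 27729 CPM. Osteoblast markers fell from between 7101 and 10379 CPM to between 167 and 354 CPM. The part of these shifts in the age differences of the members was not tested, and in bulk RNA fewer cells of a type and less RNA per cell cannot be told apart. Among males, 65-week replicate 3 held 117 counts of Xist where the other males held at most 3, and among females 2-week replicate 3 held 12 counts of the Y-linked Ddx3y where the others held at most 1. For some of the members whose result turned on either library, values are given with and without it.

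Of the members, 4 hold annotated snoRNA genes on their own strand (10 in Gas5, with Snord80 listed under 2 IDs, 3 each in Zfas1 and 2410006H16Rik and 2 in 1110038B12Rik). A C/D box snoRNA guides the methylation of ribosomal and other RNA and is recognised by its C and D boxes. One snoRNA per host is shown to make clear what these transcripts carry, with the C box (TGATGA) and the last D box (CTGA) in capitals, in GRCm39 coordinates from GENCODE.
Snord47 in Gas5 (chr1:160865652-160865728, plus strand): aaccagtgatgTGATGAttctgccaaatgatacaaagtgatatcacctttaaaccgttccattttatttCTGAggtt
Snord12 in Zfas1 (chr2:166907196-166907285, plus strand): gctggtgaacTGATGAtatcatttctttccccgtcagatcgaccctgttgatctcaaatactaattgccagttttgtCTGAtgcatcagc
Snord49a in 2410006H16Rik (chr11:62494276-62494347, plus strand): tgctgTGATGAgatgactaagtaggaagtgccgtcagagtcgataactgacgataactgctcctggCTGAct
Snord52 in 1110038B12Rik (chr17:35169928-35169993, minus strand): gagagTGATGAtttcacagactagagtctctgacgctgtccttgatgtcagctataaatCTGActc

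Mir142hg and Mir22hg each hold the hairpin of a microRNA. Its mature arms are shown from RefSeq (GRCm38.p6) because the seed, bases 2 to 8 in capitals, sets which mRNAs an arm pairs with, and no seed was shared among the 4 arms.
miR-142a-5p in Mir142hg (chr11:87756867-87756887, plus strand): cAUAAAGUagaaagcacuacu
miR-142a-3p in Mir142hg (chr11:87756903-87756925, plus strand): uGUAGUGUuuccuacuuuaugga
miR-22-5p in Mir22hg (chr11:75463734-75463755, plus strand): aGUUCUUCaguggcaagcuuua
miR-22-3p in Mir22hg (chr11:75463772-75463793, plus strand): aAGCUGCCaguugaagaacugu

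Genes of the translation machinery and many snoRNA hosts start with a C within a run of pyrimidines. RefSeq promoters (GRCm38.p6, 250 bases before to 50 after the start) were found for 33 of the 59 members. The 100 bases around the start, 50 on each side, are shown for 3 snoRNA hosts and for 2 of the most abundant members. Capitals mark the longest run of a C followed by at least 4 C or T within 10 bases of the start.
Gas5 start (chr1:161035116-161035215, plus strand): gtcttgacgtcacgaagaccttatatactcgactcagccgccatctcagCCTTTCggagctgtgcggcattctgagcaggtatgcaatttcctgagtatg
2410006H16Rik start (chr11:62602827-62602926, plus strand): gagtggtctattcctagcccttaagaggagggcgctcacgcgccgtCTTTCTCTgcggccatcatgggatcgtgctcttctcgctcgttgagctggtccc
1110038B12Rik start (chr17:34952419-34952518, minus strand): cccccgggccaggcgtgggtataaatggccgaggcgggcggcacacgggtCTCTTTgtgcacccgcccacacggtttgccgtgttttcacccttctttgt
Oip5os1 start (chr2:119594246-119594345, plus strand): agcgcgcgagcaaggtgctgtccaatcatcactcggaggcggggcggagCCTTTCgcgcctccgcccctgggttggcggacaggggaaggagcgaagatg
Malat1 start (chr19:5802623-5802722, minus strand): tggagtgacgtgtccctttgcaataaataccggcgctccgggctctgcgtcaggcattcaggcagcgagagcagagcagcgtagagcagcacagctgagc
Such a run was present in 13 of the 33 member promoters (39.4%) and in 28.8% of the promoters of all 27025 genes. It was in the windows of Gas5, 2410006H16Rik, 1110038B12Rik and Oip5os1, and not in that of Malat1 or of the annotated start of Zfas1. Gas5 has another annotated start (chr1:161034551-161034650, plus strand) whose window held no such run, and the start shown is the one with it. Other words, searched on both strands, gave shares close to those of all promoters: CCAAT in 42.4% against 41.1%, GGGCGG in 45.5% against 38.2% and CGGAAG in 18.2% against 18.8%. TATAAA was in 2 member promoters, those of 1110038B12Rik and 2610035D17Rik (6.06% against 15.7%). The median GC content was 55.3% in member promoters and 53.3% in all.

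The members together took a small share of each library. It was 0.0948 ± 0.0059% of counts in 2-week females and 0.0919 ± 0.0027% in 2-week males, against 0.156 ± 0.0042% in 65-week females and 0.148 ± 0.0046% in 65-week males (SD, n = 3 each). Malat1 alone made up 5.68 ± 0.46% and 4.04 ± 1.28% of member counts in 2-week females and males, and 24.6 ± 0.91% and 21.1 ± 0.27% at 65 weeks. Of the 59 members, 24 reached 5 CPM in all 4 groups, 8 in both ages but not all groups, 20 at 65 weeks only and 7 at 2 weeks only. Only 4 members reached 100 CPM in any group, and 23 reached 10 CPM. Just inside the limit lay 4930581F22Rik (5.08 CPM in its highest group), Foxd2os (5.11) and 1700006J14Rik (5.29), and just outside it Eldr (4.92), BC002059 (4.91) and 1700001L05Rik (4.90).

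**Figure D1:**
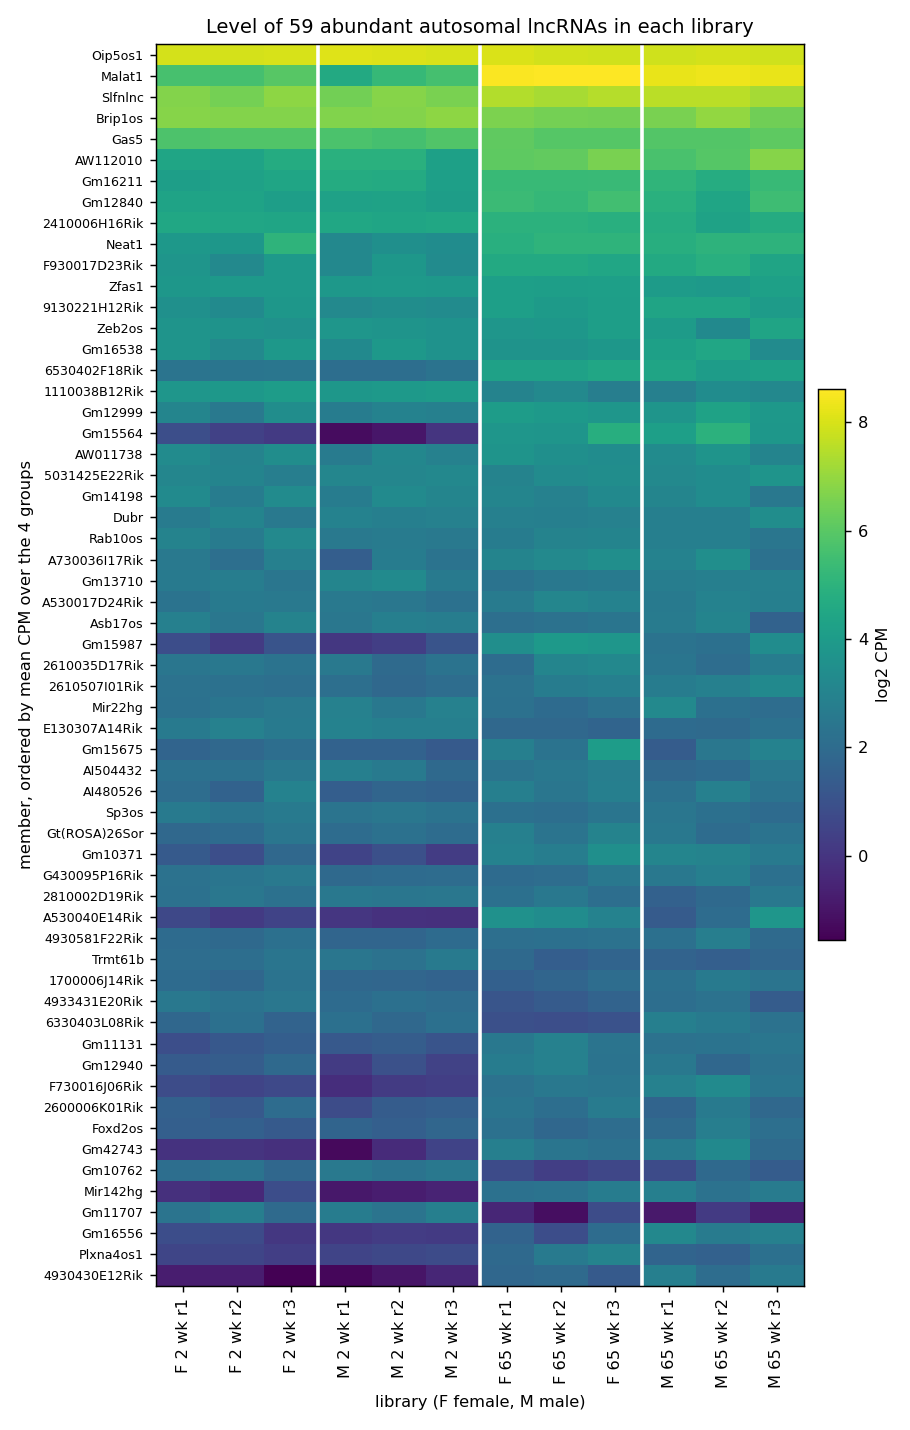
Each row is 1 of the 59 members, ordered by mean CPM over the 4 groups, each column 1 of the 12 libraries, and the colour gives log2 CPM. Oip5os1 has like colours in all libraries, Malat1 is brighter in the 6 libraries of 65 weeks, and Gm11707 is darker there.

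Levels between members were compared per kb of exonic length, since a longer transcript yields more reads. On that scale Gm12840 (44.5 CPM per kb as the mean of the 4 groups), Slfnlnc (38.1), AW112010 (25.2), Malat1 (25.0) and Oip5os1 (20.5) stood highest. Neat1, the longest of the single-exon members, was at 1.04 CPM per kb. Malat1 went from 6.84 and 4.72 CPM per kb in 2-week females and males to 48.7 and 39.6 at 65 weeks. Members had a median exonic length of 3.752 kb and 9 had a single exon block. In all, 38 overlapped a protein-coding gene, 33 of them on the opposite strand, and whether the counting used strand is not stated, so reads of these pairs cannot be told apart.

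Whether these transcripts differ between the 2-week and 65-week preparations was asked within each sex. In females 32 members were higher at 65 weeks, 6 were lower and 21 did not pass the test (edgeR quasi-likelihood test, Benjamini-Hochberg adjustment over all genes), which is 64.4% called against a background of 59.7% of the 15120 genes tested. In males 32 were higher, 5 lower and 22 not called, 62.7% against a background of 55.5%. The background was evenly split, with 30.2% of genes higher and 29.5% lower in females and 27% higher and 28.5% lower in males, whereas the members that were called were mostly higher. Other autosomal lncRNAs that could be tested were called in 35.6% of 385 cases in females and 36.5% of 348 in males. Apart from H19, these lay below 5 CPM in every group by the rule. Fewer counts leave less power, so their shares cannot be set against those of the members.

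The 20 members that reached 5 CPM at 65 weeks only, and the 7 that did so at 2 weeks only, had been chosen through the age at which they were high, so their direction is set in part by the choice. Among the 24 members at 5 CPM or more in all 4 groups, 13 were higher and 1 lower in females, and 11 were higher and 1 lower in males. Their median log2 fold change was 0.43 in females and 0.45 in males, beside 0.0056 and 0.0080 over all genes. With library totals in place of TMM scaling, the median over all genes moved to -0.13 and -0.11, that of the 59 members moved from 0.56 to 0.43 and from 0.65 to 0.54, and the females' split over all genes from 4568 higher and 4462 lower to 3668 and 5451. The 65-week libraries lay wholly above the 2-week libraries for 29 members in females and 33 in males, and wholly below for 10 and 6. The backgrounds are 27.6% and 26% of genes above, and 41.6% and 39.4% below. The male and female age comparisons share no library. The log2 fold changes of the 59 members had a Pearson r of 0.909 between them, as a description over genes that are not independent. Of the members, 31 were called in both sexes, 26 of them higher in both and 4 lower in both. The share of all genes called in both sexes was not computed, and 59.7% were called in females and 55.5% in males. The count also includes members that had reached 5 CPM at a single age, so it is a description.

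**Figure D2:**
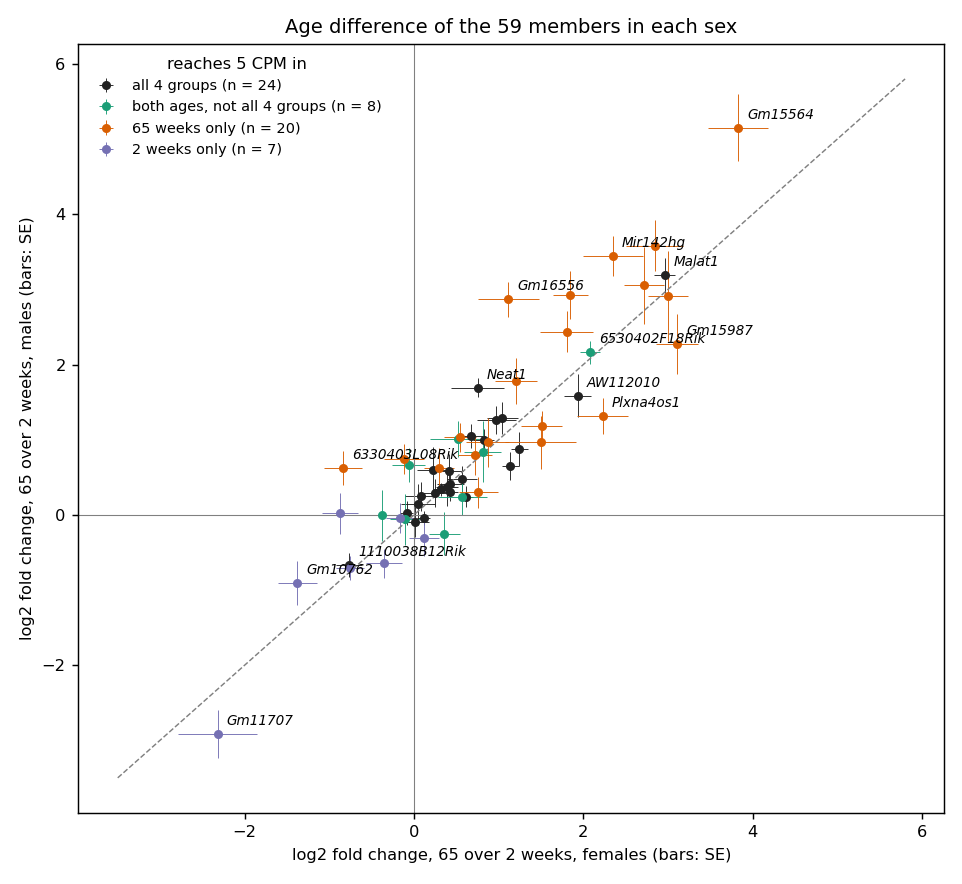
The log2 fold change from 2 to 65 weeks of each of the 59 members in females (horizontal) and males (vertical), with bars for the standard error, coloured by the groups in which the member reached 5 CPM. Points lie along the dashed line of equal change, from Gm11707 at -2.32 and -2.92 to Gm15564 at 3.83 and 5.15, while 6330403L08Rik lies on opposite sides of 0.

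Malat1, a nuclear speckle RNA (chromosome 19, 5845717 to 5853602, minus strand, GRCm39), had the largest rise of the 24 members at 5 CPM in all groups. It measured 50.5, 48.6 and 62.9 CPM in the young females and 377, 390.4 and 384 CPM in the old females. In males it measured 24.9, 37.9 and 48.99 CPM at 2 weeks and 307, 323 and 307 CPM at 65 weeks. Every 65-week library thus stood above every 2-week library. The log2 fold change was 2.96 ± 0.13 in females (SE, edgeR adjusted p = 1.95e-06) and 3.19 ± 0.23 in males (adjusted p = 2.37e-05).

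Neat1, the scaffold of paraspeckles, is its neighbour (chromosome 19, 5874736 to 5897132, minus strand). It measured 14.6, 14.2 and 32.8 CPM in the young females and 28.7, 32.9 and 33.4 CPM in the old females, so that 2-week replicate 3 lay within the 65-week range. In males the groups were apart, with 9.18, 11.4 and 10.4 CPM at 2 weeks and 28.03, 31.97 and 32.4 CPM at 65 weeks. Neat1 rose in males (log2 fold change 1.69 ± 0.13, edgeR adjusted p = 2.46e-05) and did not pass the test in females (0.75 ± 0.32, adjusted p = 0.0707). Without 2-week female replicate 3 the female value was 1.21 and passed (edgeR adjusted p = 0.000119), and DESeq2 called it with all libraries (adjusted p = 0.0268). Neat1's sex-by-age interaction did not pass (0.93 ± 0.36, edgeR adjusted p = 0.333).

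Of 7 paraspeckle proteins that bind Neat1, 1 rose and 2 fell in females and 3 rose and 1 fell in males. Sfpq rose in both sexes (log2 fold changes 0.40 and 0.45) and Hnrnpk fell in both (-0.36 and -0.34). The median of these 7 was -0.053 in females and 0.24 in males. Dubr, named for its position upstream of Dppa2, completed the members from the list of widely studied nuclear lncRNAs. It ran from 5.90 to 8.08 CPM at 2 weeks and from 7.13 to 10.8 CPM at 65 weeks and was not called (edgeR adjusted p = 0.207 and 0.211). Of the 4 genes tested from that list, Tug1 was the only one lower, in males (-0.37).

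The snoRNA hosts changed little and not all in 1 direction. Gas5 (chromosome 1, 160861793 to 160866118, plus strand) is a host whose spliced RNA is degraded when it is translated. It measured 55.2, 57.8 and 57.4 CPM in the young females and 70.5, 61.7 and 61.01 CPM in the old females, and 52.9, 49.5 and 57.3 CPM and 59.8, 59.2 and 67.2 CPM in the males. The 65-week libraries lay above the 2-week libraries in both sexes, by little. With age the log2 fold change was 0.31 ± 0.081 in females and 0.34 ± 0.092 in males (edgeR adjusted p = 0.0105 and 0.0154). With library totals as the scaling it was 0.18 and 0.22, and neither passed (adjusted p = 0.0891 and 0.101). The call was also lost without female 2-week replicate 1 (0.24, edgeR adjusted p = 0.0965) and without male 2-week replicate 1 (0.33, adjusted p = 0.065) or 2 (0.28, adjusted p = 0.0767).

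Zfas1, the host of the Snord12 family, rose in females, from 14.1, 14.9 and 15.1 CPM to 18.3, 17.5 and 18.1 CPM (0.42 ± 0.094, edgeR adjusted p = 0.00521, and 0.0629 without 2-week replicate 1). In the males it was at 14.7, 14.9 and 14.6 CPM and 16.1, 15.5 and 18.8 CPM and missed the threshold (0.30 ± 0.12, edgeR adjusted p = 0.0578, and 0.0436 without 65-week replicate 2). 2410006H16Rik, the host of Snord49a, Snord49b and Snord65, likewise rose in females, from 22.6, 22.1 and 21.6 CPM to 31.3, 31.7 and 29.1 CPM (0.61 ± 0.083, edgeR adjusted p = 0.000394). In males replicate 2 of the 65-week group was lowest of all, at 19.8 CPM, and the difference was not called (0.24 ± 0.14, edgeR adjusted p = 0.169). Without that library the male value was 0.35 and passed (edgeR adjusted p = 0.0316). Exons of Lrrc75a on the opposite strand cover 100% of its exonic length.

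The fourth host went the other way. 1110038B12Rik (chromosome 17, 35149718 to 35171867, minus strand), which holds Snord52, measured 13.8, 14.5 and 16.8 CPM in the young females and 7.92, 9.33 and 6.86 CPM in the old females. In males it measured 14.1, 15.4 and 16.5 CPM and 7.28, 10.4 and 9.14 CPM. No library of 65 weeks reached a library of 2 weeks. Its log2 fold change was -0.77 ± 0.16 in females and -0.66 ± 0.16 in males (edgeR adjusted p = 0.00348 and 0.00903). It was the only called fall among the 24 members at 5 CPM in all groups. Rows of the snoRNA genes themselves, of which 17 were in the table, held between 0 and 18 counts per library, so no level is given for the small RNAs.

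Among 24 listed snoRNA host lncRNAs 9 were tested, and 2 were higher and none lower in each sex. These were Gas5 and Zfas1 in females, and Gas5 and Snhg20 (1.43) in males. The median of the 9 was 0.045 in females and 0.29 in males. The list was matched by gene symbol, so the counts hold for these 9, and a host listed under another name would be missed. The hosts 2410006H16Rik and 1110038B12Rik, given above, were not among the 9. 1110038B12Rik was lower in both sexes and 2410006H16Rik was higher in females. The 8 core proteins of snoRNA particles gave 0 higher and 3 lower in females, namely Fbl (-0.27), Nop58 (-0.48) and Snu13 (-0.46). In males Dkc1 (0.45) was higher and Snu13 (-0.36) lower. Of 10 factors of nonsense-mediated decay, the surveillance that degrades spliced host RNAs, 4 were higher in females and 6 in males, and none was lower, beside 30.2% and 27% of all genes called higher. Upf2 was highest in females (0.83) and Upf3b in males (1.37).

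The microRNA hosts differed from each other. Mir142hg (chromosome 11, 87645630 to 87648103, plus strand) carries miR-142, a microRNA of blood cells. It measured 0.899, 0.771 and 1.78 CPM in the young females and 4.68, 4.99 and 6.52 CPM in the old females, and 0.538, 0.598 and 0.688 CPM and 7.06, 4.82 and 6.45 CPM in the males. The lowest library of 65 weeks was above the highest of 2 weeks in each sex. As it reached 5 CPM at 65 weeks only, the log2 fold changes of 2.35 ± 0.35 in females and 3.44 ± 0.26 in males (SE) are a description. Mir22hg, the host of the widely expressed miR-22, ran from 4.74 to 7.54 CPM at 2 weeks and from 3.96 to 9.30 CPM at 65 weeks, with overlapping groups. It was not called (log2 fold change -0.10 ± 0.18 and -0.062 ± 0.34, edgeR adjusted p = 0.647 and 0.887). Of the listed microRNA hosts 5 were tested in females and 4 in males. The only other calls were falls of Mir100hg (-2.26 and -4.84) and, in females, Dnm3os (-2.73).

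AW112010 (chromosome 19, 11021549 to 11033246, minus strand), a transcript induced in activated immune cells, rose in both sexes. It measured 21.4, 20.1 and 25.9 CPM in the young females and 68.7, 71.05 and 95.7 CPM in the old females. Male levels were 29.7, 29.9 and 18.8 CPM at 2 weeks and 51.5, 60.2 and 109 CPM at 65 weeks. The 65-week libraries spread widely, and replicate 3 was the highest in each sex. This gave a log2 fold change of 1.93 ± 0.16 in females and 1.59 ± 0.29 in males (SE, edgeR adjusted p = 2.91e-05 and 0.00243), and 1.21 in males without 65-week replicate 3. Summed T and NK cell markers were 62.7 to 86.0 CPM in the 2-week and 135 to 229 CPM in the 65-week libraries, and monocyte and macrophage markers 4055 to 5128 and 7567 to 10446 CPM. Their part in the rise was not tested. In the list of blood cell lncRNAs 4 of 7 were tested. AW112010 and Mir142hg were higher in both sexes, Hotairm1 was lower in males (-0.85) and Morrbid was not called.

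Oip5os1 (chromosome 2, 119424396 to 119437983, plus strand), also known as Cyrano, which binds miR-7, had the highest mean CPM of all members, not scaled to length, and stayed within a narrow range. It measured 246, 249 and 254 CPM in the young females, 274, 272 and 256 CPM in the young males, 260.4, 243 and 234 CPM in the old females and 236, 248 and 233 CPM in the old males. In males every 65-week library lay below every 2-week library, by little, and in females the ages overlapped. The log2 fold change with age was 0.11 ± 0.076 in females and -0.043 ± 0.10 in males (edgeR adjusted p = 0.235 and 0.725). Its female value turned to -0.022 with library totals as the scaling. Brip1os, antisense to the helicase gene Brip1, ran from 102 to 117 CPM at 2 weeks and from 84.7 to 124 CPM at 65 weeks. It was not called either (-0.085 ± 0.076 and 0.03 ± 0.16, edgeR adjusted p = 0.360 and 0.885), the sign in males changed with the scaling, and with library totals the females passed at -0.22 (edgeR adjusted p = 0.0321).

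Slfnlnc, a single-exon transcript near the Schlafen gene Slfn3, measured 106, 89.00 and 118 CPM in the young females and 173, 156 and 176 CPM in the old females. Male levels were 86.02, 107 and 93.3 CPM and 186, 190.1 and 152 CPM. The ages did not overlap in either sex, and the rise was 0.82 ± 0.12 and 1.00 ± 0.14 on the log2 scale (edgeR adjusted p = 0.000698 and 0.000768). Slfn3 had log2 fold changes of -0.12 and -0.015, neither of them called.

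Gm12840 and Gm16211 lie inside the spans of the coding genes Eri3 and Zfp979 on the same strand. Gm12840 measured 20.04, 20.2 and 17.8 CPM in the young females and 41.4, 37.4 and 46.3 CPM in the old females, and 18.9, 19.6 and 17.4 CPM and 29.9, 21.4 and 44.3 CPM in the males. Gm16211 measured 17.8, 19.3 and 21.7 CPM and 39.04, 38.9 and 40.1 CPM in females and 25.6, 24.9 and 18.2 CPM and 34.04, 26.6 and 39.3 CPM in males. In both genes the ages were apart in each sex, and male 65-week replicate 2 was the lowest of its age. The log2 fold changes were 1.24 ± 0.10 and 0.88 ± 0.23 for Gm12840 and 1.14 ± 0.10 and 0.65 ± 0.18 for Gm16211, in females and males (edgeR adjusted p from 2.48e-05 to 0.0175). Without male 65-week replicate 3 the value of Gm12840 was 0.59. In males the call was lost without 2-week replicate 3 (edgeR adjusted p = 0.0522 for Gm12840 and 0.0586 for Gm16211) and, for Gm16211, without 65-week replicate 1 (0.0645). Gm16211 shares 1530 bases at 99.1% identity with Zfp987 elsewhere, so its reads may be split between both genes.

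**Figure D3:**
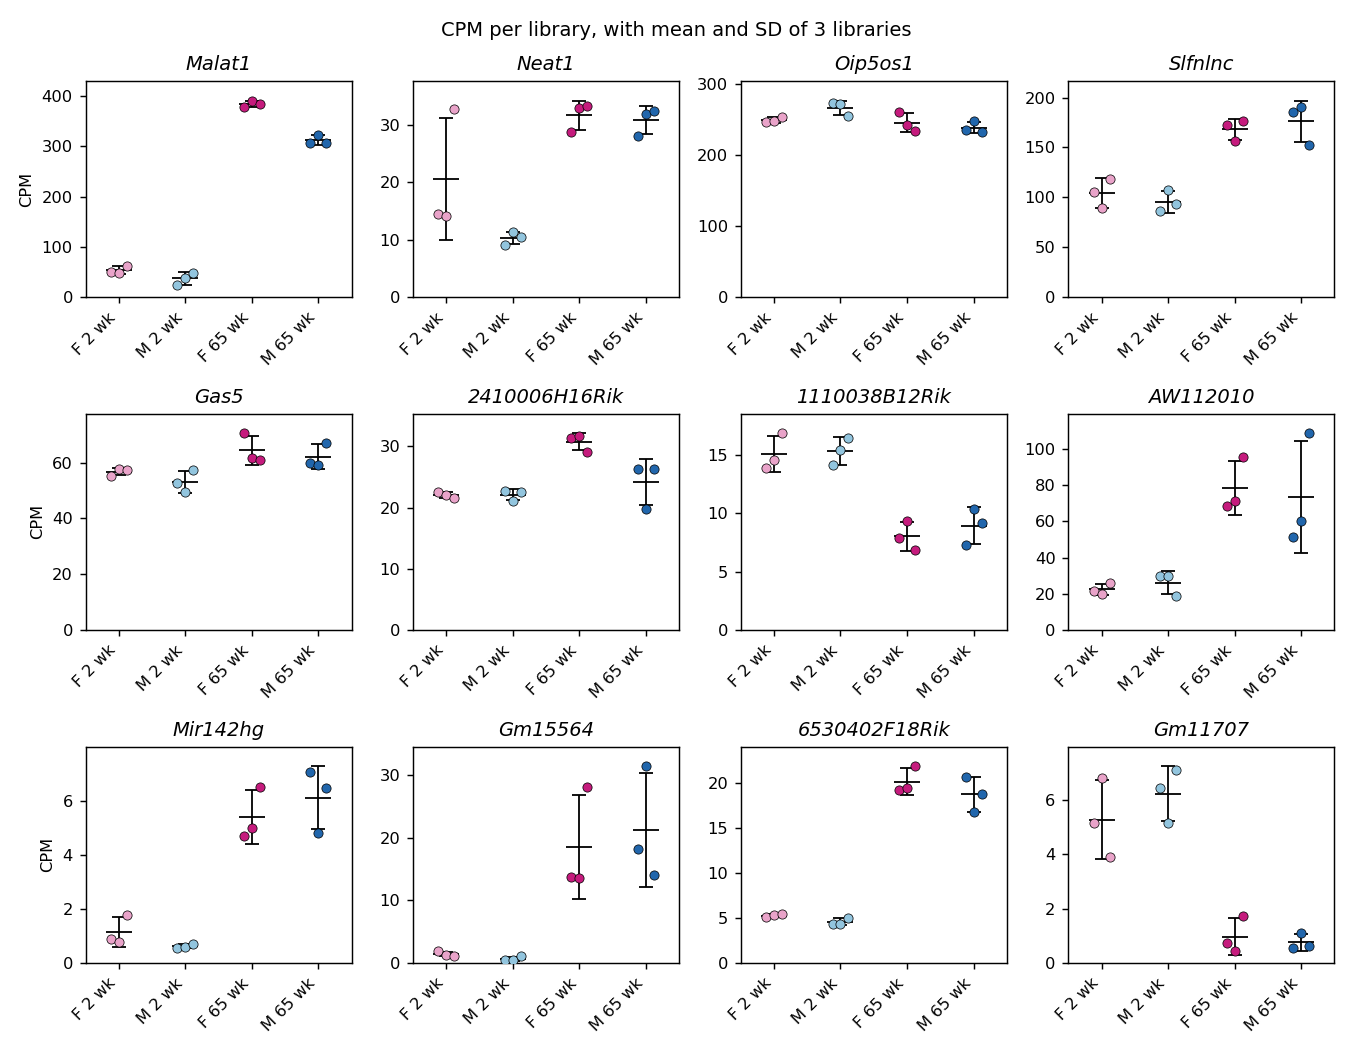
CPM of 12 members in each library, 3 points per group, with a bar at the mean and its SD, for females and males (F, M) of 2 and 65 weeks. Malat1, AW112010, Mir142hg, Gm15564 and 6530402F18Rik are higher in all 65-week libraries, 1110038B12Rik and Gm11707 are lower, and Oip5os1 differs little.

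6530402F18Rik (chromosome 2, 29135119 to 29143018, minus strand), which starts 1 base from Ntng2 on the same strand, rose in both sexes with little spread between libraries. It measured 5.06, 5.28 and 5.38 CPM in the young females and 19.2, 19.4 and 21.9 CPM in the old females. In males it measured 4.38, 4.28 and 5.01 CPM and 20.7, 16.8 and 18.8 CPM. The rise was 2.08 ± 0.12 and 2.16 ± 0.15 on the log2 scale (edgeR adjusted p = 4.82e-06 and 1.91e-05). Ntng2, which encodes a netrin-G family protein, had 1.73 and 2.49 and was called in both sexes. Of the exonic length of 6530402F18Rik, 10.1% is also exon of Ntng2.

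The members with the largest fold changes had reached 5 CPM at 65 weeks only, so their values are a description. Gm15564 (chromosome 16, 35776121 to 35803658, minus strand) measured 1.82, 1.31 and 1.12 CPM in the young females and 13.8, 13.5 and 28.05 CPM in the old females. The males stood at 0.426, 0.527 and 1.02 CPM and 18.2, 31.4 and 13.98 CPM. This gave a log2 fold change of 3.83 ± 0.35 in females and 5.15 ± 0.45 in males (SE). Gm15564 shares a stretch of 75 bases at 98.7% identity with Lars2, the gene of the mitochondrial leucyl-tRNA synthetase on another chromosome. Counts of Lars2 were high and variable, at 2455, 1574 and 790.1 CPM in the young females, 196, 842 and 1932 CPM in the young males, 5438, 3995 and 2949 CPM in the old females and 3879, 6178 and 4191 CPM in the old males. Lars2 rose as well (log2 fold change 1.499 ± 0.38 and 2.39 ± 0.70, edgeR adjusted p = 0.00997 and 0.0205). Whether reads of 1 of these genes were counted for the other was not tested.

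Gm15987 and A530040E14Rik also share long stretches with genes elsewhere (680 bases at 98.1% identity with Gm15270, and 1302 bases at 98.8% with Gm10553), so their counts are uncertain. Gm15987 measured 1.797, 1.17 and 2.09 CPM and 11.2, 14.99 and 13.9 CPM in the young and old females, and 1.08, 1.24 and 2.15 CPM and 4.904, 4.59 and 10.5 CPM in the males. A530040E14Rik measured 1.58, 1.11 and 1.41 CPM and 11.9, 10.4 and 7.81 CPM in females, and 1.03, 0.933 and 0.908 CPM and 2.56, 4.07 and 13.9 CPM in males. Both stood apart by age in each sex, and among 65-week males replicate 3 was at least 2 times as high as either of the others. Their log2 fold changes were 3.11 ± 0.25 and 2.27 ± 0.40 for Gm15987 and 3.00 ± 0.24 and 2.91 ± 0.60 for A530040E14Rik. Without male 65-week replicate 3 the male values were 1.81 and 1.905.

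4930430E12Rik, near the syntenin gene Sdcbp, measured 0.599, 0.600 and 0.340 CPM in the young and 3.58, 3.93 and 2.52 CPM in the old females, and 0.381, 0.503 and 0.716 CPM and 7.17, 4.26 and 6.14 CPM in the males. Gm42743, which starts 383 bases from the histone gene H4c14 on the opposite strand, measured 0.953, 0.971 and 0.914 CPM and 7.09, 5.25 and 4.71 CPM in females and 0.404, 0.814 and 1.404 CPM and 6.26, 9.63 and 3.88 CPM in males. For each of them, no library of 2 weeks reached a library of 65 weeks. F730016J06Rik, near the ficolin gene Fcnb, had log2 fold changes of 1.85 ± 0.20 in females and 2.93 ± 0.32 in males. Plxna4os1, antisense to the semaphorin receptor gene Plxna4, had 2.23 ± 0.30 and 1.32 ± 0.24. Gm16556 had 1.11 ± 0.36 and 2.87 ± 0.23, and 0.85 in females without 2-week replicate 3.

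The falls were fewer. Gm11707 (chromosome 11, 106848076 to 106864047, minus strand) had the largest and had reached 5 CPM at 2 weeks only. It measured 5.15, 6.83 and 3.89 CPM in the young females and 0.723, 0.440 and 1.74 CPM in the old females, and 6.46, 5.15 and 7.13 CPM and 0.549, 1.11 and 0.614 CPM in the males. With age the log2 fold change was -2.32 ± 0.46 in females and -2.92 ± 0.32 in males, with no overlap of the ages. Gm10762, antisense to Zc3h6, had -1.38 ± 0.23 and -0.91 ± 0.29. E130307A14Rik, which starts beside the DNA polymerase zeta gene Rev3l, had -0.76 ± 0.17 and -0.71 ± 0.16. Trmt61b, which carries the name of a tRNA methyltransferase gene but is annotated as lncRNA, had -0.36 ± 0.21 and -0.65 ± 0.19. 4933431E20Rik had -0.88 ± 0.21 in females and 0.018 ± 0.27 in males. All 5 had reached 5 CPM at 2 weeks only, so these values are a description, and 4933431E20Rik was near 0 in males.

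The nearest coding gene of each member was taken as a point of comparison. For 56 members in females and 55 in males both could be tested, and the log2 fold changes had a Pearson r of 0.238 and 0.275, as a description over genes. Where both were called, they moved the same way in 17 of 24 pairs in females and 15 of 19 in males. Called members were mostly higher (32 of 38 and 32 of 37), and the share of like directions among unlinked genes was not tested. The pairs include members that had reached 5 CPM at a single age, whose direction is set in part by the choice. A530040E14Rik and Sp140l1 rose together (Sp140l1 4.26 and 5.04), as did Gm42743 and H4c14 (2.54 and 2.71) and Gm11131 and the class I histocompatibility gene H2-Q4 (1.22 and 0.67). These members, and Plxna4os1 below, had reached 5 CPM at 65 weeks only. Exons of H2-Q4 on the opposite strand cover 17.7% of the exonic length of Gm11131, so reads of this pair cannot be told apart. Other pairs parted. Plxna4 had -2.70 and -2.61 while Plxna4os1 was higher, Hspa1b, an inducible heat shock gene, had 1.53 and 1.94 while 1110038B12Rik fell, and Tfpi, an anticoagulant gene of endothelium, had -4.03 and -3.95 beside Gm13710 at 0.016 and -0.093.

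**Figure D4:**
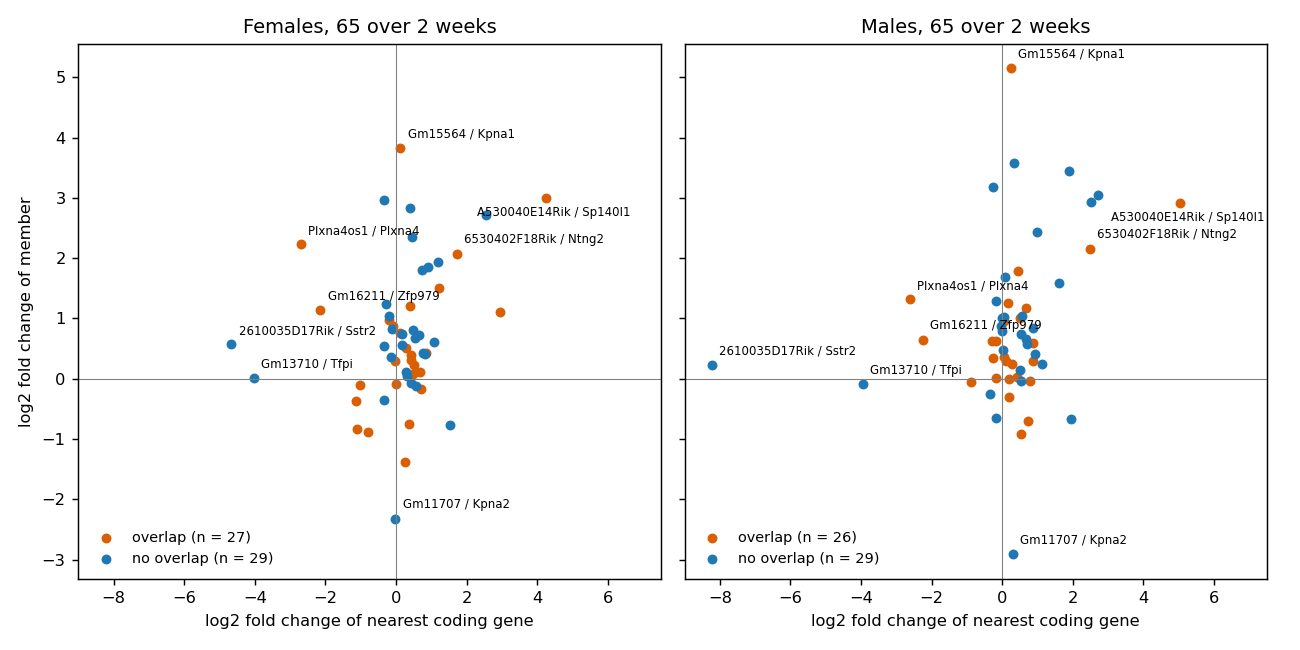
The log2 fold change from 2 to 65 weeks of each member (vertical) against that of its nearest protein-coding gene (horizontal), in females and males, coloured by whether the 2 genes overlap. The points do not follow 1 line: Gm15564 is high while Kpna1 is near 0, and Gm13710 is near 0 while Tfpi is at -4.03 and -3.95.

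Differences between the sexes were then examined at each age. No member was called at 2 weeks (edgeR, background 0.0332% of 15081 genes), at 65 weeks (background 0.042% of 14287) or for the interaction of sex and age (background 0.00635% of 15747). At an unadjusted p under 0.05 there were 13, 8 and 12 of 59 members (22%, 13.6% and 20.3%), beside 17.8%, 10.4% and 11.9% of all genes tested. DESeq2 called 2, 3 and 2 members, beside 447 of 15081, 398 of 14287 and 394 of 15747 genes. Without male 65-week replicate 3, edgeR called 4 members at 65 weeks and 4 for the interaction, beside 830 of 14700 and 750 of 16089 genes. The member counts include 6330403L08Rik and Gm16556, which had been chosen through their level in 65-week males alone. The counts without replicate 3 also include Gm15987, A530040E14Rik, 4933431E20Rik and F730016J06Rik, each of which had reached 5 CPM at a single age. Libraries of the sexes did not overlap for 12 of 59 members at 2 weeks, 2 of them higher and 10 lower in males (background 21.7% of genes, with 9.97% higher and 11.8% lower), and for 10 of 59 at 65 weeks, 7 of them higher and 3 lower in males (background 15.5%, with 9.32% higher and 6.16% lower).

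At 2 weeks the smallest p were those of Gm12940, G430095P16Rik and Gm15564, each lower in males. Gm12940, beside the paraspeckle gene Sfpq, measured 2.59, 2.68 and 3.76 CPM in females and 1.14, 1.96 and 1.35 CPM in males (log2 fold change, male over female, -1.04 ± 0.26, edgeR adjusted p = 0.213). DESeq2 called it (adjusted p = 0.0161). G430095P16Rik, within the span of Nfix, measured 4.82, 5.28 and 5.82 CPM and 3.81, 4.02 and 4.13 CPM (-0.43 ± 0.12, edgeR adjusted p = 0.219). For Gm15564, given above, the value was -1.15 ± 0.35 (edgeR adjusted p = 0.223). In all 3 the female and male libraries were apart. Neat1 was also lower in males without overlap (-1.02 ± 0.33, edgeR adjusted p = 0.229), and DESeq2 called it (-1.03, adjusted p = 0.0432).

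At 65 weeks the smallest p were those of 6330403L08Rik, Gm16556 and Gm15987. 6330403L08Rik (chromosome 5, 138980811 to 138986336, plus strand) is antisense to Pdgfa, the gene of a growth factor for mesenchymal cells, and Pdgfa exons cover 46.2% of its exonic length. It measured 3.57, 4.63 and 3.16 CPM in the young females and 1.89, 1.85 and 2.01 CPM in the old females, but 4.55, 3.66 and 4.54 CPM and 7.03, 6.15 and 4.799 CPM in the males. At 65 weeks every male library was above every female library. Only 65-week males had brought it to 5 CPM, so its differences are a description. The log2 fold change, male over female, was 1.64 ± 0.26, and 1.80 without male replicate 3. With age it was -0.84 ± 0.22 in females and 0.62 ± 0.22 in males, the only member whose libraries parted in opposite directions. The interaction was 1.46 ± 0.31, and 1.64 without male 65-week replicate 3. Pdgfa measured 3.62, 3.99 and 4.91 CPM in the old females and 9.85, 6.89 and 7.41 CPM in the old males (log2 fold change, male over female, 0.94 ± 0.24, edgeR adjusted p = 0.220).

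Gm16556 measured 3.17, 1.79 and 4.09 CPM in the old females and 9.08, 6.45 and 7.22 CPM in the old males (1.32 ± 0.33), without overlap, and it too had reached 5 CPM in the old males only. Its interaction was 1.76 ± 0.43, and 1.84 without male 65-week replicate 3. Gm15987 was at a male-over-female value that did not pass with edgeR at 65 weeks (-1.03 ± 0.30, edgeR adjusted p = 0.271). With all libraries DESeq2 called it (adjusted p = 0.0395). Without male replicate 3, which stood nearest to the females, it was at -1.47. A530040E14Rik, whose values by library are given above, was at -0.60 ± 0.52 with all libraries (edgeR adjusted p = 0.775) and at -1.58 without that library. Both members had reached 5 CPM at 65 weeks only. With replicate 3 left out, the old males lay below 5 CPM in both, so the values without it are a description. Without male 65-week replicate 3 Gm16538 was called (0.64, edgeR adjusted p = 0.0353, against 0.37 ± 0.27 and 0.730 with all). For the interaction, 4933431E20Rik was at 1.16 and F730016J06Rik at 1.33 without it, against 0.90 (edgeR adjusted p = 0.321) and 1.08 (adjusted p = 0.272) with all. 4933431E20Rik had reached 5 CPM at 2 weeks only and F730016J06Rik at 65 weeks only, so these values are a description. 1700006J14Rik, antisense to Hmga2 and chosen through 65-week males alone, had an interaction of 0.86 ± 0.28.

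**Figure D5:**
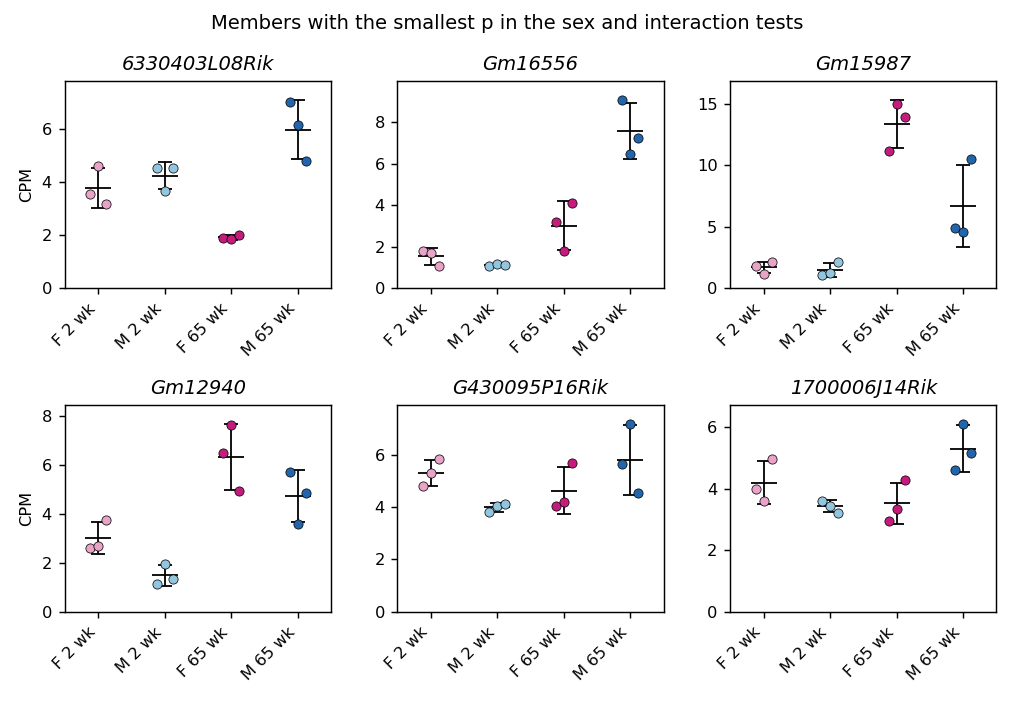
CPM in each library, with the mean and SD of 3 libraries, of the 6 members with the smallest p in the sex comparisons and the interaction, other than Gm15564, for females and males (F, M) of 2 and 65 weeks. 6330403L08Rik lies at 1.85 to 2.01 CPM in the old females and 4.80 to 7.03 CPM in the old males, while at 2 weeks the sexes overlap.

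Sequence shared with other genes limits some of these counts. Of the 59 members, 9 had a stretch of at least 100 bases at 98% identity or more with a counted gene elsewhere in the genome. Malat1 was among them, with 151 bases shared with Spc24 at most, out of 7.886 kb. The others were Gm15987, A530040E14Rik, Gm16211, 2610035D17Rik, Brip1os, E130307A14Rik, 2600006K01Rik and F930017D23Rik. How reads that map to several places were handled is not stated.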

How the data were processed

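RNA from endomucin-purified BECs of 12 samples (4 groups of 3 libraries) was sequenced by the authors, who deposited 1 table of raw counts per gene. The label gives polyA RNA and the methods a total RNA kit. Per the labels, TopHat2, HTSeq and mm9 were used, whereas the methods name STAR, featureCounts and GRCm39. Strand use, multi-mapping and the annotation release are not given in the sources used here. Of 37620 gene IDs, 31052 matched GENCODE M39 (GRCm39), from which biotypes and positions were taken. The unmatched IDs held 0.713% of counts. The members, gene lists and named members were chosen with earlier results of these data known. Members were named by role list, by level and by the size of their age or sex difference.

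Genes were kept by filterByExpr (minimum count 10) and scaled by TMM. The quasi-likelihood test of edgeR 4.0.16 in R 4.3.3 was applied to the deposited counts, with p-values adjusted by Benjamini-Hochberg over every gene tested and a threshold of 0.05. Each comparison used its own 6 libraries and the interaction all 12. Standard errors were the log2 fold change divided by the square root of F. CPM used the library total of 26044743 to 44569600 counts. DESeq2 1.42.0, RLE and total-count scaling, no filter, a replicate block, 1 model of all libraries, other CPM minimums and leaving out each library were tried. The code was tested on simulated data.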

Additional observations from a re-analysis of the deposited data

Results flagged for a closer look

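6330403L08Rik, antisense to Pdgfa, stood apart by age in opposite directions in the 2 sexes. All 3 libraries of 65-week females (1.85 to 2.01 CPM) were below all 3 of 2-week females (3.16 to 4.63 CPM), and all 3 of 65-week males (4.80 to 7.03 CPM) were above all 3 of 2-week males (3.66 to 4.55 CPM). The interaction of sex and age was 1.46 ± 0.31 on the log2 scale. Only 65-week males had brought the gene to 5 CPM, so this value is a description and its test supports nothing. Under the alternatives the male age difference of 0.62 ran from 0.45 to 0.76 and the female one of -0.84 from -1.02 to -0.73. Pdgfa, whose exons cover 46.2% of its exonic length on the other strand, had age differences of -1.10 ± 0.17 in females and -0.29 ± 0.18 in males and an interaction of 0.81 (edgeR adjusted p = 0.238). Its part in the values of 6330403L08Rik was not tested.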

How the results depend on the processing

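In the age comparisons the number of members called stayed within 1.5 times of 38 in females (28 to 39) and 37 in males (26 to 40) under all alternatives. Of the members called, 26 of 38 in females and 25 of 37 in males were called under every alternative. Leaving out single libraries gave 28 to 38 in females and 26 to 40 in males. Same-numbered libraries of different groups, as deviations from their group means, had correlations of -0.658 to 0.324. Deviations from a mean of 3 libraries depend on each other, so these values cannot decide whether the numbers pair the samples. Libraries of different numbers ran from -0.515 to 0.625, the highest between 2-week female replicate 3 and 2-week male replicate 2, and the cause was not tested. A replicate block gave 36 and 30 members called, and 0 genes for the interaction.

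The sex comparisons depended on the method. At 2 weeks 5 of all genes were called, 447 with DESeq2, 8 with all 12 libraries in 1 model and 5 to 11 without single libraries. DESeq2 called 2 members. At 65 weeks 6 of all genes were called, 398 with DESeq2, 10 with total-count scaling, 105 without a filter, 254 in 1 model of all libraries and 5 to 830 without single libraries, the highest without male replicate 3. Members called were 0, against 3 with DESeq2, 1 without a filter, 2 in 1 model and 0 to 4 without single libraries. For the interaction 1 gene was called, 394 with DESeq2, 7 without a filter and 0 to 750 without single libraries, again highest without male 65-week replicate 3. Members called were 2 with DESeq2 and 0 to 4 without single libraries. The causes were not tested. A CPM minimum of 2 gave 135 members and one of 10 gave 23.

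Among the named members' age differences, the signs that changed were those of members near 0. Oip5os1 in females was at -0.022 with total-count scaling. In males, 4933431E20Rik was at -0.11 with total-count scaling, -0.029 without a filter, -0.025 with the replicate block and from -0.16 to 0.23 without single libraries. Brip1os in males was at -0.0915 with total-count scaling, -0.017 without a filter and from -0.15 to 0.14 without single libraries. Without single libraries, Mir22hg in males ran from -0.56 to 0.15 and G430095P16Rik in females from -0.23 to 0.024. Sex and interaction values that did not pass also changed sign, such as Gm11707 for the interaction (-0.98 to 0.13) and at 65 weeks (-0.74 to 0.37). Library depth limits members near 1 CPM most, where the lowest count was 13.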
